A study of Mus musculus with 6 samples.

Results

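Wnt ligands, their receptors and their secreted antagonists were followed as 42 named genes in mouse embryonic fibroblasts with and without Rap1, the telomere protein encoded by Terf2ip. Each gene was read by the Agilent probe whose RefSeq accession named it, and where several probes did so, by the probe of highest mean signal over the 6 arrays. This gave a probe for 40 of the 42 genes, out of 33269 genes or unnamed transcripts on the array, and Fzd9 and Lgr4 had none under this rule. The study compared 3 arrays labelled Wild-type with 3 labelled Rap1 knock-out. Cells of either group had received SV40 LT antigen and Cre recombinase by infection and grew in DMEM with puromycin, so wild-type cells carry these too. Cre excises exon 3 of the targeted Terf2ip allele. The labels do not say which embryos, cultures or clones the replicates came from, so every p-value here is set against the spread between these samples alone, which may be technical.

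Wnt proteins are secreted, lipid-modified signals that bind Frizzled receptors together with the co-receptors Lrp5 and Lrp6. In the branch that acts through beta-catenin, binding halts the destruction of beta-catenin, which then enters the nucleus and activates genes with the factors Lef1 and Tcf7, among them the feedback inhibitors Axin2, Nkd1 and Nkd2. Secreted Frizzled-related proteins, Wif1 and Dickkopf proteins such as Dkk1 can block the signal outside the cell. R-spondins, through receptors such as Lgr5, keep Frizzled receptors on the surface. Fibroblasts of different body sites use different mixtures of these genes.

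The values are log2 signals relative to the 75th percentile of each array, and they are compared only within a probe. Between 25373 and 27601 of 41174 probes per array were well above background, the scanner software's flag for a measured signal. Terf2ip read −1.75, −1.65 and −1.81 in wild type and was well above background on 0 of 3 knockout arrays, at least 38.3-fold lower. Wild-type arrays 2 and 3 were near alike, with an SD of their log2 differences of 0.25 over the fitted features, against 0.83 to 1.24 for the other pairs of arrays. Spots of the same probe within an array had a median SD of 0.05 to 0.06. Of 12 fibroblast markers, 11 were well above background on all 6 arrays, and Col1a1, Vim and Sparc were high on each. On knockout array 1, however, the fibroblast proteoglycan Lum was not above background, Dcn read −5.47 against 2.19 to 5.79 elsewhere, and Thy1 read −2.22 against 1.92 to 3.79. Thy1, Pdgfra and Fn1, 3 of the 12, were lower on every knockout array than on any wild-type array, where 5.88% of all features were. A difference below 0 was found for 9 of the 12 markers, and for 8766 of all 19647 fitted features. The summed signal of the 12 markers was 564 to 670 in wild type and 344 to 575 in knockout cells, lowest on knockout array 3. The endothelial markers Pecam1, Cdh5 and Emcn and the blood marker Ptprc were above background on no array. The summed signal of the 6 epithelial markers, relative to the 75th percentile, was 2.09 to 3.11 in wild type. In knockout cells it was 4.04 to 13, most of it from Krt18. Of the 5 fitted epithelial markers, 3 had a difference below 0, among them Krt8 at −1.74, and 2 above 0. The part of either marker list in the results was not tested. In such bulk RNA, fewer cells of a type and less RNA per cell cannot be told apart.

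Setting knockout against wild-type cells asks which transcripts depend on Rap1, and here whether Wnt genes are among them. None of the Wnt genes passed the test, and in most of them the arrays of a group lay further apart than the groups did. Frizzled and Lrp receptor transcripts were the steadiest across arrays, while R-spondin, Dickkopf, secreted Frizzled-related and several Wnt transcripts differed up to 438-fold between arrays of the same genotype. Fzd1 and Fzd4, both receptors, were the only fitted members whose arrays did not overlap between the groups. That is 5.88% of the 34 fitted members, where 17.2% of all features did not overlap. Neither was separated with each array scaled by its median, and for Fzd4 array 1 of both groups read −1.21.

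Of the 40 genes with a probe, 31 were well above background on all 6 arrays and 1, Wnt2b, on none. A gene entered the limma fit if every array of at least 1 group measured it well above background, which 34 did. Of these, Wnt4, Fzd3 and Lgr5 passed through the knockout arrays alone, which favours an upward difference. At a limma adjusted p under 0.05, 0 of the 34 passed, where 0.0102% of all 19647 fitted features did. At an unadjusted limma p under 0.05 there was 1, Fzd3, which was higher, where 5.61% of all features had such a p and were higher and 10.3% had it in either direction. The groups did not overlap for 0 members in the higher direction, where 11.3% of all features were separated, and for 2 (5.88%) in the lower direction, where 5.88% were, or 17.2% in either direction. The members' share in the lower direction was thus that of all features. On slide 2 alone 23 of the 34 members were separated, where 57.8% of all features were. A difference of at least 2-fold was seen in 3 members upward (8.82%), Wnt16, Fzd3 and Lgr5, where 3.89% of all features had one, and in 3 downward, Dkk2, Rspo1 and Rspo3, where 6.26% did (10.1% in both directions). Differences above 0 were found in 18 members and below 0 in 16, with a median log2 difference, knockout minus wild type, of 0.06, beside 0.07 over all features.

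These counts moved with single arrays. Without wild-type array 1, which leaves the near-alike arrays 2 and 3, limma called 63 features, Dkk2 among them as the only member, and 15 members did not overlap where 45.7% of all features did not. Members that did not overlap numbered 7 on leaving out knockout array 1 (25.3% of all features), 6 for knockout array 2 (28.9%) and 7 for knockout array 3 (42.2%). Leaving out wild-type array 2, wild-type array 3 or knockout array 1 left limma with 0 calls among all features (unadjusted p under 0.05: 698, 695 and 1618). The deleted Terf2ip was thus not called in these fits either, so 0 calls among the members there does not show that they were alike. The median over the members was 0.29 when wild-type array 1 was left out, −0.15 for wild-type array 2, −0.23 for wild-type array 3 and −0.05 for knockout array 3, so it had no settled direction.

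**Figure D1:**
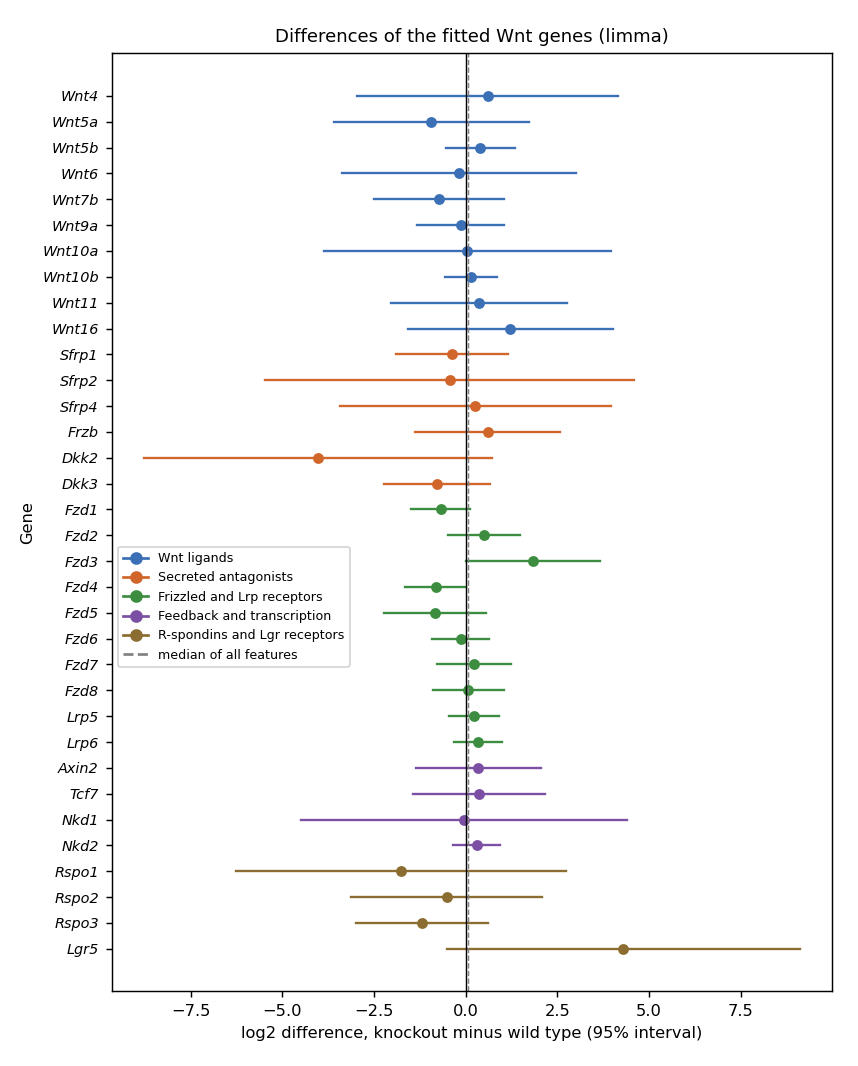
Log2 differences (knockout minus wild type) of the 34 fitted Wnt genes on the horizontal axis, with a row for each gene, coloured by role. Points are limma estimates over 3 against 3 arrays, bars their 95% intervals and the dashed line the median of all features, 0.07. Only the interval of Fzd3, from 0.02 to 3.67, leaves out 0, and those of Dkk2, Lgr5, Sfrp2 and Rspo1 are the widest.

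Among the receptors, which carry the signal into the cell, 9 of the 10 genes with a probe were well above background on every array and all 10 were fitted. Their pooled SD within a group had a median of 0.51, beside 0.39 over all fitted features. Fzd1, a Frizzled that can signal through beta-catenin, read 2.67, 1.76 and 1.67 on wild-type arrays 1, 2 and 3 and 1.63, 1.15 and 1.29 on knockout arrays 1, 2 and 3. Every knockout array lay below every wild-type array, closely so for knockout array 1, and wild-type array 1 stood apart above. The log2 difference was −0.68 (SE 0.33, limma adjusted p = 0.500), with −1.04 on slide 1 and −0.50 on slide 2. With each array scaled by its median Fzd1 overlapped between the groups.

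Fzd4, the receptor of Norrin as well as of Wnt proteins, read −1.21, −1.0 and −1.0 in wild type and −1.21, −2.46 and −1.99 on the knockout arrays. Knockout arrays 2 and 3 were low, while knockout array 1 stood at the level of wild-type array 1, so that the separation there was smaller than the spread of replicate spots. The log2 difference was −0.82 (SE 0.35, limma adjusted p = 0.488). It was −0.01 on slide 1, which held array 1 of both groups, and −1.22 on slide 2. Under quantile normalisation, median scaling, normexp correction and the deposited value table the groups overlapped for Fzd4.

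Fzd3, a Frizzled known from planar cell polarity and axon guidance, read −3.55, −5.95 and −6.51 in wild type and −3.13, −3.25 and −4.08 on the knockout arrays. Wild-type array 3 was not well above background, and wild-type array 1 lay inside the knockout range, so the groups overlapped. The log2 difference was 1.85 (SE 0.76, limma adjusted p = 0.486), with 0.41 on slide 1 and 2.56 on slide 2. A second Fzd3 probe, above background on 1 wild-type and 3 knockout arrays, differed by 1.77, and there wild-type array 1, at −5.46, lay just below the lowest knockout array, at −5.38. Normexp correction with quantile normalisation gave 0.70, and with wild-type arrays 2 and 3 averaged the limma adjusted p was 0.936, in a range of 0.0614 to 0.945 over the alternatives.

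The remaining receptors had differences between −0.84 and 0.50, and for each of them the groups overlapped. Fzd2 read 3.11, 3.23 and 3.29 in wild type and 4.44, 3.85 and 2.84 on the knockout arrays, a difference of 0.50 (95% interval −0.49 to 1.48). Fzd5 differed by −0.84, but its second probe, also above background throughout, by −0.01. Fzd6 differed by −0.13, Fzd7 by 0.22 and Fzd8 by 0.07. The co-receptors were close between the groups: Lrp5, at 0.23 (95% interval −0.45 to 0.92), and Lrp6, at 0.35 (−0.31 to 1.00), had intervals that leave out a 2-fold decrease.

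Of the 13 Wnt ligands, 9 were well above background on all arrays, and the groups overlapped for each of the 10 fitted ligands. Wnt16 was the only ligand with a difference of at least 2-fold. It read −1.68, −4.35 and −4.48 in wild type and 0.08, −3.32 and −3.61 on the knockout arrays, so that array 1 was the high array of both groups. The difference was 1.22 (SE 1.17, limma adjusted p = 0.651), with 1.75 on slide 1 and 0.95 on slide 2. It was 0.04 without knockout array 1 and 2.13 without wild-type array 1, and with the slide as block its SE was 0.25 (limma adjusted p = 0.158, in a range of 0.118 to 0.991 over the alternatives).

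Wnt10a and Wnt6, ligands of epithelial and skin appendage development that lie beside each other in the genome, varied most among the ligands between the knockout arrays. Wnt10a read 1.73, −0.17 and −0.02 in wild type and −2.85, 4.14 and 0.39 on the knockout arrays, a 127-fold span within the knockout group. Wnt6 read −1.11, −2.91 and −2.80 and then −5.37, 0.19 and −2.18, a 46.9-fold span. For both, knockout array 2 was the highest of the 6 and knockout array 1 the lowest, and the group differences were 0.04 and −0.18. Wnt5a, a ligand known for signalling without beta-catenin, read −3.12, −3.70 and −3.71 in wild type and −5.97, −1.65 and −5.74 on the knockout arrays. Knockout array 2 was thus above and the other knockout arrays below all wild-type arrays, with a difference of −0.94 (SE 1.11).

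Other ligands set wild-type array 1 apart from wild-type arrays 2 and 3. Wnt11, a ligand of cell movement and polarity, read −0.31 on wild-type array 1 and −3.56 on each of the others, 9.53-fold lower, and −3.47, −1.56 and −1.31 on the knockout arrays. On slide 2 alone, with the near-alike arrays as the only wild type, Wnt11 differed by 2.12 (limma adjusted p = 0.0420, up to 0.987 under the other alternatives), against 0.36 over all arrays. Wnt4 was above background on wild-type array 1 alone of its group, at −2.89, and on all knockout arrays, at −6.71, −6.36 and −4.37. Wnt2 was above background on wild-type array 1, at −2.97, and on knockout arrays 1 and 3, at −5.01 and −3.58, and was not fitted. Wnt7b ran the other way, at −3.90 on wild-type array 1 and −1.67 and −1.81 on arrays 2 and 3. Wnt5b, Wnt9a and Wnt10b were steadier, with differences of 0.40, −0.13 and 0.16. A second Wnt9a probe was above background on no array. Wnt3 was above background on knockout array 3 alone.

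The RefSeq promoter windows of assembly GRCm38.p6, which span 300 bases around a gene's start, were searched on both strands for CTTTGAA and CTTTGAT, core letters to which Lef1 and Tcf factors bind. At a given position a match is to 1 or the other, never to both. Of 34 windows for 27 of the named genes, 3 (8.82%) held a match, against 8.65% of 32851 windows of all genes, so the members' share was that of the background. The windows of Axin2, Lef1 and Tcf7 held none, which says only that these letters are not in them. The 3 matches lie before Wnt11, Dkk1 and Wnt5b. Wnt11 differed strongly between arrays, and Dkk1 was above background on wild-type array 1 alone. Wnt5b was steadier than most ligands, with a pooled SD within a group of 0.54, beside 0.39 over all fitted features. Each match is printed 5′ to 3′ with the matching letters in capitals, on the minus strand in all 3. They lie at chr7:98835050-98835079 for Wnt11, chr19:30549595-30549624 for Dkk1 and chr6:119449439-119449468 for Wnt5b, with the centre of the match at −48, −114 and −68 from the start site.
Wnt11: cgcggaccgtcgCTTTGATccgcccacgtc
Dkk1: tcctcccaaagCTTTGAAatcccatcccgg
Wnt5b: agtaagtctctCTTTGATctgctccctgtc

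Secreted antagonists differed between arrays at least as much as ligands did, with a median SD within a group of 1.86 against 1.65 for the ligands. Dkk2, a Dickkopf protein that binds Lrp6, read −4.27, 3.12 and 3.22 in wild type and −2.13, −4.17 and −3.71 on the knockout arrays. Wild-type arrays 2 and 3 were high, while wild-type array 1 was the lowest of all 6, 173-fold below them. The difference of −4.03 (SE 1.98, limma adjusted p = 0.500) therefore came with overlapping groups and with opposite signs on the slides, 2.14 on slide 1 and −7.11 on slide 2. Without wild-type array 1, Dkk2 passed the threshold (−6.51, limma adjusted p = 0.0327), as it did on slide 2 alone (limma adjusted p = 0.0169), while the adjusted p under the other alternatives reached 0.945. In both of those fits the near-alike arrays were the only wild type.

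Sfrp2, a secreted Frizzled-related protein of mesenchyme, read 1.62, −0.21 and 0.04 in wild type and 5.23, −3.54 and −1.54 on the knockout arrays. The knockout arrays thus spanned 438-fold around the wild-type values, and the difference was −0.44 (95% interval −5.46 to 4.59). Sfrp4, of the same family, read 0.76, −4.71 and −4.58 in wild type and −4.18, −1.33 and −2.22 on the knockout arrays, with wild-type array 1 42.3-fold above the others. Dkk1, the classical Lrp5 and Lrp6 antagonist, was above background on wild-type array 1 alone, at −4.49, and its second probe behaved the same way. Frzb differed by 0.60, Sfrp1 by −0.37 and Dkk3 by −0.79, each with overlapping groups. Wif1, which binds Wnt proteins themselves, was above background on wild-type arrays 1 and 2 and knockout array 3.

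**Figure D2:**
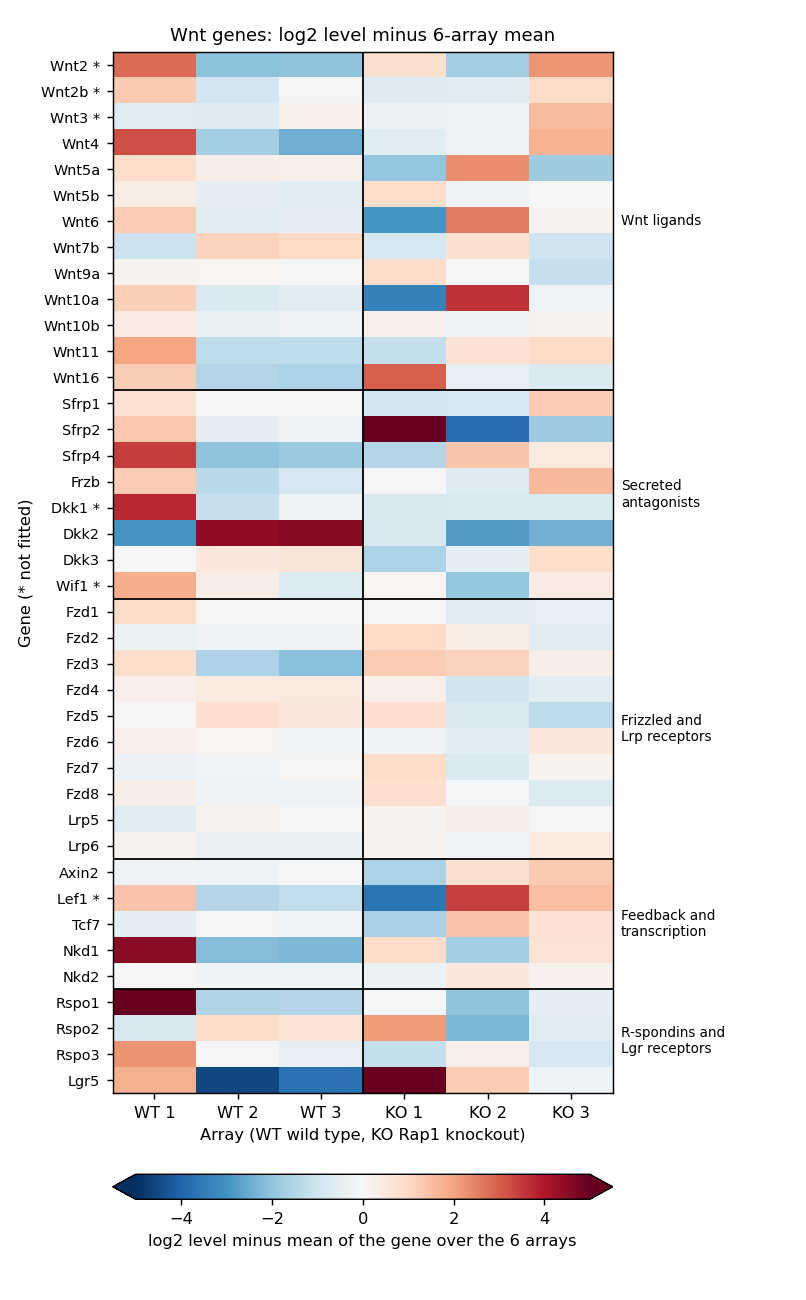
Each row is a Wnt gene with a probe, each column an array, and colour gives the log2 level minus the gene's mean over the 6 arrays (values beyond 5 either way share the end colours, and * marks genes not fitted). Receptor rows are pale, while Dkk2 and Rspo1 split wild-type array 1 from wild-type arrays 2 and 3, and Wnt10a, Sfrp2 and Lef1 split the knockout arrays.

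R-spondins and Lgr5 had the largest spread of the roles, with a median SD within a group of 2.34. Rspo1 read 4.03, −3.05 and −3.02 in wild type and −1.68, −3.59 and −2.07 on the knockout arrays. Only wild-type array 1 was high, 134-fold above the other wild-type arrays, while knockout arrays 1 and 3 lay within the wild-type range and knockout array 2 below it. The difference was −1.77 (SE 1.89, limma adjusted p = 0.681), and it turned to 0.58 without wild-type array 1. Rspo3 read −1.89, −4.19 and −4.54 and then −5.34, −3.86 and −4.96, with wild-type array 1 again highest and a difference of −1.18 (SE 0.75, limma adjusted p = 0.538). On slide 2, without that array, Rspo3 differed by −0.04. Rspo2 was highest on knockout array 1, at 3.51, and lowest on knockout array 2, at −0.90, with the wild-type arrays between them at 0.60, 2.30 and 2.06.

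Lgr5, the R-spondin receptor known as a stem cell marker and as a beta-catenin target, read −3.05, −9.40 and −8.51 in wild type and 0.53, −3.55 and −5.04 on the knockout arrays. It was well above background on all knockout arrays but on wild-type array 1 alone, and that array lay above knockout arrays 2 and 3. The fitted difference was 4.30 (SE 2.01, limma adjusted p = 0.497), 3.58 on slide 1 and 4.66 on slide 2. It is a difference against signals at background and depends on how background is treated. Normexp correction followed by quantile normalisation gave 1.66, and without knockout array 1 it was 2.69.

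**Figure D3:**
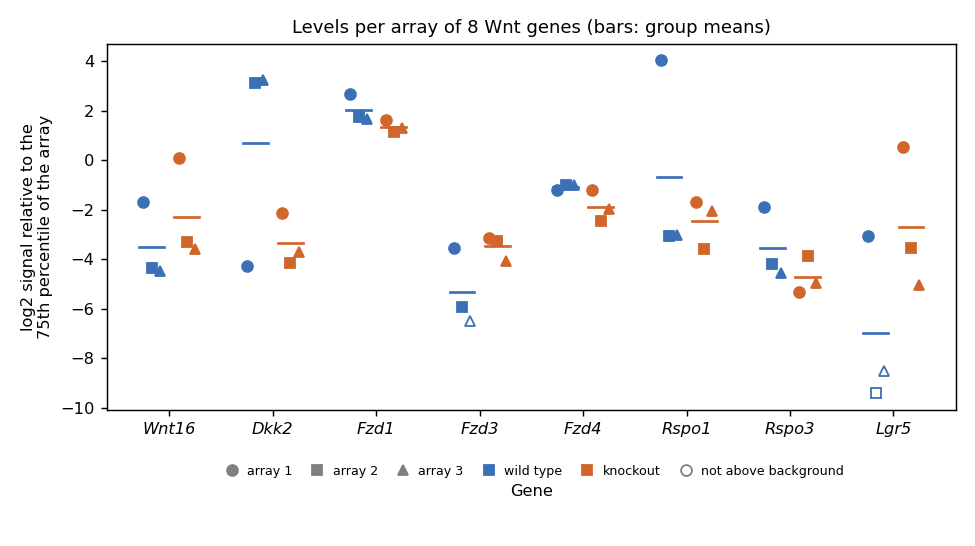
Level of 8 Wnt genes on each array (log2 relative to the 75th percentile of the array), with the shape giving the array number, the colour the group, open symbols spots not well above background and bars the group means. Fzd1 and Fzd4 show the only groups that do not overlap, while for Dkk2, Rspo1 and Lgr5 wild-type array 1 stands far from wild-type arrays 2 and 3.

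Of the 5 feedback genes and factors at the end of the pathway, Lef1, Tcf7 and Axin2 separated the knockout arrays from each other, while Nkd1 set wild-type array 1 apart and Nkd2 was steady. Lef1 read −1.75 on knockout array 2 and −3.64 on knockout array 3, the highest of the 6, and was not above background on knockout array 1. On the wild-type arrays it read −3.72, −6.63 and −6.40, the last not above background, so Lef1 was not fitted. Tcf7, a factor of the same family, read −1.25, −0.72 and −0.93 in wild type and −2.42, 0.65 and −0.05 on the knockout arrays. Axin2, a scaffold of the beta-catenin destruction complex and the most used readout of the pathway, read −4.11, −4.18 and −4.05 and then −5.52, −3.14 and −2.63. For Lef1, Tcf7 and Axin2 alike, knockout array 1 lay below and knockout arrays 2 and 3 above all wild-type arrays. Knockout array 1 was also the lowest for Wnt6, Wnt10a, Wnt5a, Sfrp1, Dkk3, Rspo3 and Nkd2. For Wnt5b, Wnt9a, Wnt16, Sfrp2, Fzd2, Fzd3, Fzd7, Fzd8, Rspo2 and Lgr5 it was instead the highest of the 6. Lef1, Tcf7, Axin2, Wnt6 and Wnt10a were set together after their values were seen.

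The group differences were 0.36 for Tcf7 (95% interval −1.44 to 2.16) and 0.35 for Axin2 (−1.36 to 2.05), the signs opposite on the slides: −1.17 and 1.13 for Tcf7, −1.42 and 1.23 for Axin2. A second Tcf7 probe had the same order of arrays and a difference of 0.43. Nkd1, which inhibits Dishevelled, read 2.01 on wild-type array 1 and −4.68 and −4.77 on the other wild-type arrays, 106-fold lower, and −1.58, −4.20 and −1.81 on the knockout arrays. Its relative Nkd2 was steady, at −2.20, −2.37 and −2.42 and then −2.47, −1.67 and −1.95, a difference of 0.30 (SE 0.27). With each array scaled by its median, Nkd2 was the only member higher on every knockout than on every wild-type array.

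**Figure D4:**
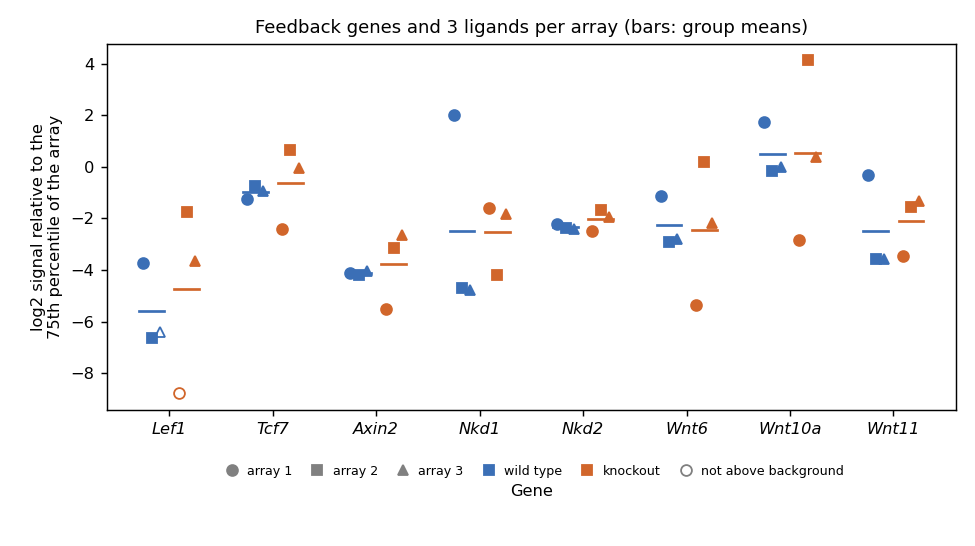
Level on each array (log2 relative to the 75th percentile of the array) of the 5 feedback genes and factors and of 3 ligands, with symbols as in the plot of 8 Wnt genes. For Lef1, Tcf7 and Axin2 knockout array 1 is the lowest of the 6 arrays and knockout arrays 2 and 3 the highest, while Nkd1 is high on wild-type array 1 alone.

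Arrays of the same group lay far apart for most members. In the main analysis the pooled SD within a group had a median of 1.14 over the 34 fitted members, beside 0.39 over all fitted features. Above the latter value lay 30 members, as 50% of all features do by definition. For dim members this spread depends on how background is treated. Normexp correction with quantile normalisation took the SE of the difference from 1.11 to 0.59 for Wnt5a and from 0.83 to 0.33 for Frzb. For Fzd3 it went from 0.76 to 0.28. Members with bright arrays changed less, with Sfrp2 going from 2.11 to 1.98 and Dkk2 from 1.98 to 1.79. Members were not compared with features of similar level. Wild-type array 1 differed at least 2-fold from the mean of arrays 2 and 3 for 16 members (47.1%), where 16.7% of all features did. By role this held for 6 of 10 ligands, 4 of 6 antagonists and 4 of 4 R-spondin and Lgr genes, for 1 of 4 fitted feedback genes, Nkd1, and for 1 of 10 receptors, Fzd3. The knockout arrays spanned at least 2-fold for 28 members (82.4%), where 37.8% of all features did, and for 6 of the 10 receptors among them. The receptors, the steadiest role, still had 8 of 10 genes above the median SD of all features. In the further lists of the pathway, wild-type array 1 stood 2-fold apart for 7 of 12 genes often induced by beta-catenin (median SD 0.67), 6 of 20 cofactor and planar polarity genes (0.45), 3 of 3 remaining ligands, receptors and antagonists (0.61) and 0 of 27 intracellular signalling genes (0.29). These are descriptions of 6 arrays, and whether culture, embryo or handling sets them was not tested.

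**Figure D5:**
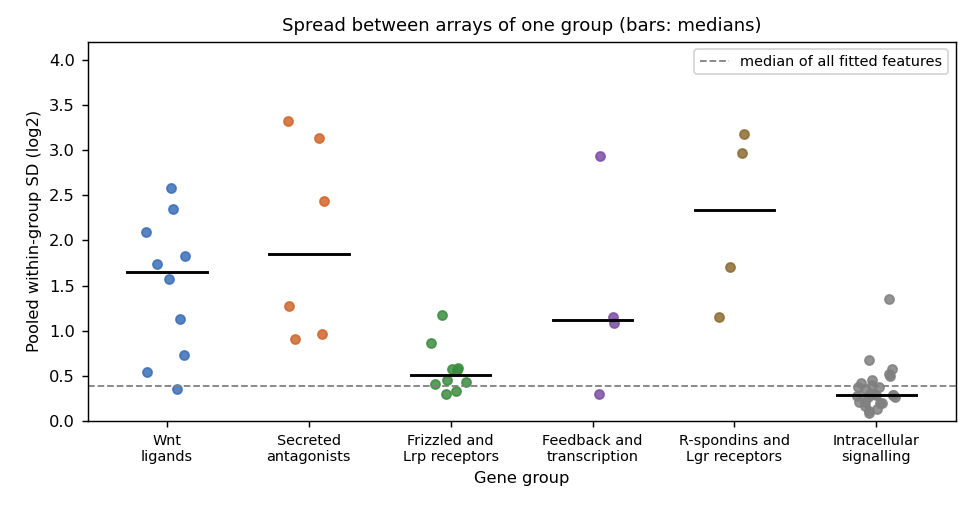
Pooled SD within a group (log2, vertical axis) of each fitted gene, by role, with the bar at the median of the role and the dashed line at the median of all fitted features, 0.39. Receptors (median 0.51) and intracellular genes (0.29) lie near the line, and ligands (1.65), antagonists (1.86) and R-spondin and Lgr genes (2.34) well above it.

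The other genes of the pathway were taken from 4 further lists, of which 62 genes were fitted and 0 passed the threshold over all arrays. Daam2, a formin of planar polarity, read −0.35, −4.79 and −5.19 in wild type and −1.80, −2.49 and −1.96 on the knockout arrays. Its difference was 1.36 (limma adjusted p = 0.634), and it passed the threshold on slide 2 alone (2.77, limma adjusted p = 0.0473) and without wild-type array 1 (2.91, limma adjusted p = 0.0411), the only gene of these lists that passed under an alternative. For 9 of the 62 the groups did not overlap, where 17.2% of all features did not. Of these, 7 were among the 27 intracellular signalling genes (25.9%), 5 of them higher and 2 lower, where 11.3% of all features were separated upward and 5.88% downward. The intracellular list holds the beta-catenin destruction complex, Dishevelled and nuclear partners, all above background on every array. Cby1 (0.98, SE 0.32) and Ctnnbip1 (0.69, SE 0.27), both binders and inhibitors of beta-catenin, and the co-repressor Tle1 (−0.60, SE 0.24) had its smallest p, each with a limma adjusted p of at least 0.475. Ctnnb1, beta-catenin itself, differed by 0.03 (SE 0.21). Among 20 fitted cofactor and planar polarity genes, 1 did not overlap, the formin Daam1 at −1.02 (SE 0.33, limma adjusted p = 0.475). Rnf43, which removes Frizzled receptors, had a difference of 1.04 (SE 0.54, 0.51 to 1.64 with each array left out) and the Dickkopf receptor Kremen1 of 0.58 (SE 0.28).

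Of 13 genes often induced by beta-catenin, 12 were fitted and 0 were without overlap, with Id2 at 1.08 (SE 0.57), Jun at −0.88 (SE 0.48) and the cyclin Ccnd1 at −1.87 (SE 1.14). With each array left out in turn Ccnd1 ranged from −2.77, without knockout array 2, to −0.72, without knockout array 1, Id2 from 0.68 to 1.75 and Jun from −1.20 to −0.41. Ccnd1 read −1.47 on knockout array 1, the array that was also lowest for Lef1, Tcf7 and Axin2, and 2.64 and 1.36 on knockout arrays 2 and 3. Myc, Cd44 and Fosl1 of this list were lowest on knockout array 1 too. Ccn5 and, narrowly, Bmp4 and Twist1 were instead highest on it, at 3.15, 1.07 and 2.17, as was Lgr5 at 0.53. These genes were set together after their values were seen. Of 12 further ligands, receptors and antagonists, 7 were above background on no array, among them Wnt3a and Dkk4, and 3 were fitted. Lgr6, an R-spondin receptor, had the smallest p of all these genes, with −4.26, −3.06 and −2.79 in wild type and −5.12, −4.90 and −4.69 on the knockout arrays. All knockout arrays lay below all wild-type arrays, and the difference was −1.54 (SE 0.41, limma adjusted p = 0.418), or −0.77 under normexp correction. Fzd10 differed by 1.27 (SE 0.43), having entered the fit through its knockout arrays alone, or by 0.41 under normexp correction, and Dkkl1 by 1.14 (SE 0.48). Leaving out wild-type array 1 turned the 9 of 62 genes without overlap into 28, where 45.7% of all features were without overlap. It was 17 without knockout array 1 (25.3% of all features), 19 without knockout array 2 (28.9%) and 24 without knockout array 3 (42.2%).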

How the data were processed

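Per the labels, total RNA of 6 fibroblast samples was amplified and labelled with Cy3, and each sample has its own Agilent array. Intensity values in the deposited scanner files came from version 10.5.1.1 of Agilent Feature Extraction, as their headers state, with a processed signal already corrected for background, the median signal and local background, and flags. A deposited value table gives the authors' log2 values for these arrays, and their processing notes name limma. Its knockout columns 1, 2 and 3 matched scanner files 2, 3 and 1 of that group (correlation 0.99999), with column medians of 6.86 to 6.87, which leaves the groups intact. Its scaling is not stated in these sources. These correlations were taken with normexp-corrected, quantile-normalised signals, so the value table and that alternative hold nearly the same values and are not independent.

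Control spots (1639 of 45018) and outlier spots (74 to 120 per array) were left out and 0 spots were saturated. Replicate spots were averaged, and log2 processed signals were set relative to each array's 75th percentile. RefSeq accessions named 23374 of 41174 probes through a gene table of GRCm38.p6; the files name build mm8, so no array coordinates were used. Each gene was represented by its brightest probe. The groups were compared with limma 3.58.1 (R 4.3.3) through lmFit and eBayes with 2-sided p-values and no block, adjusted by Benjamini-Hochberg over all features. The procedure was tested on simulated data with independent arrays. Those hold neither near-alike wild-type arrays nor slides, so they do not show how it behaves with these. The number of arrays limits the precision. A bound on a fold sets the mean of the brighter group against a floor for the dim group, which on every array is the smallest signal flagged as well above background, or the dim probe's own signal if larger. Array 1 of both groups lay on slide 1 and the other 4 arrays on slide 2, and scans were split alike. Deviations of arrays sharing a replicate number correlated at 0.01, 0.06 and −0.08, so the numbers were not taken as pairs.

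Members and lists were chosen with earlier results of these data known. Members past the threshold, without overlap or with a difference of at least 2-fold are given for every array. The 3 smallest p-values of each further list are named, and others were named after their values were seen. Alternatives covered scaling, normexp background correction of the median signals with quantile normalisation, the value table, the filter, averaged probes, the variance model, blocks, slide 2 alone, averaged wild-type arrays 2 and 3, and each array left out.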

Additional observations from a re-analysis of the deposited data

How the results depend on the processing

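Over all features, limma called 2 in the main analysis, 0 with only features above background on all 6 arrays, 4 with a gene's probes averaged, 0 with the slide as block (3482 at an unadjusted p under 0.05), 0 with wild-type arrays 2 and 3 averaged (690) and 301 on slide 2 alone. With the replicate block it called 0 (2351 at an unadjusted p under 0.05) and 0 members, and the samples share no more than a number. Terf2ip kept its call in 10 of the 17 alternatives that gave it a value. Its differences there were −6.86 to −2.62, with a limma adjusted p of up to 0.177, so some of these fits miss the deleted gene itself. With each array left out in turn the calls ran from 0 to 63, those among members from 0 to 1, and the members' median from −0.23 to 0.29. Members without overlap then ran from 2 to 15 and genes of the further lists without overlap from 9 to 28. Over all features that share was 18.7% to 45.7%. Slide 2 alone gave 2 called members, 23 members without overlap (57.8% of all features) and 36 genes of the further lists. Members without overlap fell to 1 under median scaling, quantile normalisation, normexp correction and the value table (18.0%, 17.4%, 16.9% and 16.9% of all features). That member was Nkd2, higher in knockout cells, under median scaling and Fzd1, lower, under the others. The members' median was −0.22 with wild-type arrays 2 and 3 averaged. Median scaling moved the median of all features by 0.11 and no filter by −0.15, the latter with the probes at background added.

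Some members changed sign. Under normexp correction and the value table these were Wnt4 (−0.19 and −0.19), Wnt6 (0.18 and 0.18) and Sfrp4 (−0.0565 and −0.0497). With wild-type arrays 2 and 3 averaged these were Wnt4 (−0.28), Wnt10a (−0.26), Wnt11 (−0.18), Sfrp4 (−0.63) and Fzd8 (−0.0045). On slide 2 alone these were Wnt5a (0.016), Wnt6 (1.85), Sfrp1 (0.31), Fzd6 (0.0187), Fzd7 (−0.27), Fzd8 (−0.17), Lrp5 (−0.0298), Nkd1 (1.72) and Rspo1 (0.20), and under median scaling Nkd1 (0.0586). With each array left out in turn the ligands that changed sign were Wnt4 (−0.47 to 2.36), Wnt6 (−1.50 to 1.27), Wnt9a (−0.63 to 0.40), Wnt10a (−1.75 to 1.75) and Wnt11 (−0.18 to 1.44). Among antagonists these were Sfrp1 (−1.10 to 0.0208), Sfrp2 (−3.03 to 1.36), Sfrp4 (−0.66 to 2.07) and Frzb (−0.0489 to 1.39), and among receptors Fzd6 (−0.44 to 0.10), Fzd7 (−0.19 to 0.63), Fzd8 (−0.33 to 0.42) and Lrp5 (−0.0078 to 0.38). The others were Axin2 (−0.22 to 1.22), Tcf7 (−0.27 to 1.27), Nkd1 (−1.19 to 2.20), Rspo1 (−2.96 to 0.58) and Rspo2 (−1.71 to 0.49). The cause of these changes was not tested. Wnt4, Fzd3, Lgr5 and Terf2ip have no value with only features above background on all 6 arrays, and signal over background limits these and the 6 members not fitted.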
